A study of Mus musculus with 8 samples.

Results

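The Hox genes are transcription factors that tell cells where along the body axis they lie. They were read here as every gene named Hoxa, Hoxb, Hoxc or Hoxd with a paralogue number from 1 to 13 and no other suffix that had a probe set of its own, taking the probe set with the highest mean. This gave 36 genes of 22180 on the array: 9 of the Hoxa cluster on chromosome 6, 10 of Hoxb on chromosome 11, 9 of Hoxc on chromosome 15 and 8 of Hoxd on chromosome 2. Hoxa11 and Hoxd4 had no probe set of their own and are not analysed as members here. The tissue was the thoracic annulus fibrosus, the ring of fibrocartilage that encloses the core of the intervertebral disc, taken from Black 6 mice. WT and ENT1-null mice were each studied at 2 and at 6 months of age, which makes 4 groups with 2 arrays each, and each array held a pool of 5 to 6 annulus tissues. ENT1-null mice lacked exons 2 to 4 of Slc29a1, the gene of equilibrative nucleoside transporter 1, and nothing in the labels limits the deletion to a cell type. The labels do not tell if pools were made from different mice, so p-values measure only the spread between pools, and the number of arrays limits the precision.

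As background, the genes of each Hox cluster lie in the order of their paralogue numbers, and the order on the chromosome matches the order in which they come on along the axis: low numbers reach into the hindbrain and neck, middle numbers mark the trunk and high numbers the lumbar, sacral and tail levels. Genes with the same number in different clusters are paralogues with overlapping roles. In the embryo the vertebrae and discs come from the sclerotome of the somites, where the combination of Hox proteins sets the shape of each vertebra, and adult connective tissue cells keep much of their positional Hox pattern. Hox proteins bind DNA with TALE-class partners (Pbx, Meis, Pknox), Polycomb proteins hold silent Hox genes off, and Trithorax proteins keep active ones on.

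The clusters also carry microRNA genes between the Hox genes, and miR-196 is known to target Hoxb8 messenger RNA. Their mature sequences from RefSeq (GRCm38.p6), with the seed, bases 2 to 8 from the 5′ end, in capitals, are shown because 1 of these genes fell in the data below. The miR-196 pair shares the seed AGGUAGU, the miR-10 pair shares ACCCUGU, and miR-615 has a seed of its own.
miR-196a-5p (Hoxb and Hoxc clusters): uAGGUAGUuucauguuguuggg
miR-196b-5p (Hoxa cluster): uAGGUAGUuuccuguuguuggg
miR-10a-5p (Hoxb cluster): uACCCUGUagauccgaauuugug
miR-10b-5p (Hoxd cluster): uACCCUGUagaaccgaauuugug
miR-615-3p (Hoxc cluster): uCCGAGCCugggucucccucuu

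Promoter entries were found for 20 of the 36 genes in RefSeq (GRCm38.p6). The 250 bases before the start are printed for 1 member of each cluster, the one with the largest moderated statistic among those that fell at 6 months and have a single entry, and for Hoxd13, at the 5′ end of Hoxd, as a gene near background. Capitals mark CpG dinucleotides, which are dense at Hox promoters and are where Polycomb acts. The windows are, in order, chr6:52208673-52208922 (minus strand), chr11:96281655-96281904, chr15:103034145-103034394, chr2:74704365-74704614 and chr2:74667975-74668224 (plus strand).
Hoxa6: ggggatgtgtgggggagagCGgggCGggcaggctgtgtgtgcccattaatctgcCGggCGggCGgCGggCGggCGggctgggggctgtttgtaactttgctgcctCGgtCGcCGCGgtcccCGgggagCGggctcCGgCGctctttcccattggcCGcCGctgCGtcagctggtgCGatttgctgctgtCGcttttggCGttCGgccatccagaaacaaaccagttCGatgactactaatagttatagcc
Hoxb8: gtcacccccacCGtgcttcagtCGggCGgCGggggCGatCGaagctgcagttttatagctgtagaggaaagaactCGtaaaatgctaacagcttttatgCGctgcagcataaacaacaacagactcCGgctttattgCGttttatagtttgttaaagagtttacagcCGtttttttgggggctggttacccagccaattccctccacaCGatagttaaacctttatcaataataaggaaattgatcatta
Hoxc4: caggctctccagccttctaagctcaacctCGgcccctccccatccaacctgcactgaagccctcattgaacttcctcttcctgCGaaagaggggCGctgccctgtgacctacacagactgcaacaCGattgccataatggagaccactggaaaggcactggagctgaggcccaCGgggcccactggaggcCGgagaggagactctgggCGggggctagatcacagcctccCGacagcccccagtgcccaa
Hoxd8: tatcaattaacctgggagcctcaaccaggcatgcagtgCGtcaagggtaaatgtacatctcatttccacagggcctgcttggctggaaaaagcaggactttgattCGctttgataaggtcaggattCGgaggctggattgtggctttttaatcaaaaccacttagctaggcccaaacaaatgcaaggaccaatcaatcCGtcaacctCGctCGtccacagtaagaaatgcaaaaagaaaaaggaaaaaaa
Hoxd13: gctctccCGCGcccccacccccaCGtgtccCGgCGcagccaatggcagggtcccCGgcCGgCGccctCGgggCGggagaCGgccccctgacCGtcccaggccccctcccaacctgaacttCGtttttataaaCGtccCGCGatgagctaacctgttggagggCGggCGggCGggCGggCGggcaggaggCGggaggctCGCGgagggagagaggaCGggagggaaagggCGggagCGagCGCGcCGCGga
These windows hold 24, 12, 8, 6 and 31 CpG. Over the 22 windows of the 20 Hox genes the median was 12.5 CpG (range 2 to 35), against a median of 6.0 over 32851 windows of all genes. The 7 windows of genes that fell at 6 months had a median of 12 CpG (6 to 28) and the 7 of tested genes that were not called had 14 (3 to 35), so the ranges overlap. Searched on both strands, the motif TGATNNAT, a letter pattern bound by Hox and Pbx together, lay in 4 of 22 Hox windows (18.2%) and in 7.68% of all windows. CCAAT lay in 13 of 22 (59.1%) against 33.8%, TATAAA in 3 (13.6%) against 12.4%, and TAATTA in 2 (9.09%) against 4.84%. A match is a description of the letters and not a binding site.

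Quality values for the arrays were close. Array medians lay between 6.77 and 6.82 (log2), Pearson r over genes was 0.991 to 0.992 between arrays of a group (genes are not independent replicates), and Slc29a1 read 10.34 to 10.71 in the 4 WT arrays and 8.80 to 9.36 in the 4 ENT1-null arrays. Defining markers of the labelled tissue were present: 19 of 20 cartilage markers and 15 of 15 annulus and tendon markers lay above the receptor level defined below in all 4 groups. So did 18 of 18 neutrophil markers and 14 of 15 skeletal muscle markers.

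By paralogue number, most Hox genes of the middle of the clusters, which mark the neck and trunk, and some anterior ones were above the receptor level. None of the posterior end was. Levels are RMA values in log2 units. As a reference for genes not expected in this tissue, 1409 odorant, vomeronasal and trace-amine receptor genes had a median of 4.58 and a 95th percentile of 6.92, called the receptor level here. Probe sets differ in how brightly they respond, so the order of 2 genes' levels is not an order of their abundance, and only the place of each gene relative to the receptor level is read. Above it in all 4 groups were 17 of 36 Hox genes, 3 more were above it in some groups and 16 in none. The 50th percentile of all genes was 7.13, so more than 50% of all genes had a mean above the receptor level. The count of 17 therefore does not set Hox genes apart from other genes on the array. By paralogue number these were 3 of 7 genes of groups 1 to 3, 9 of 11 of groups 4 to 7, 5 of 10 of groups 8 to 10, and 0 of 8 of groups 11 to 13. With the receptors' 99th percentile (8.05) in its place, 4 genes remained above in all groups: Hoxa6, Hoxa7, Hoxc6 and Hoxc8.

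**Figure D1:**
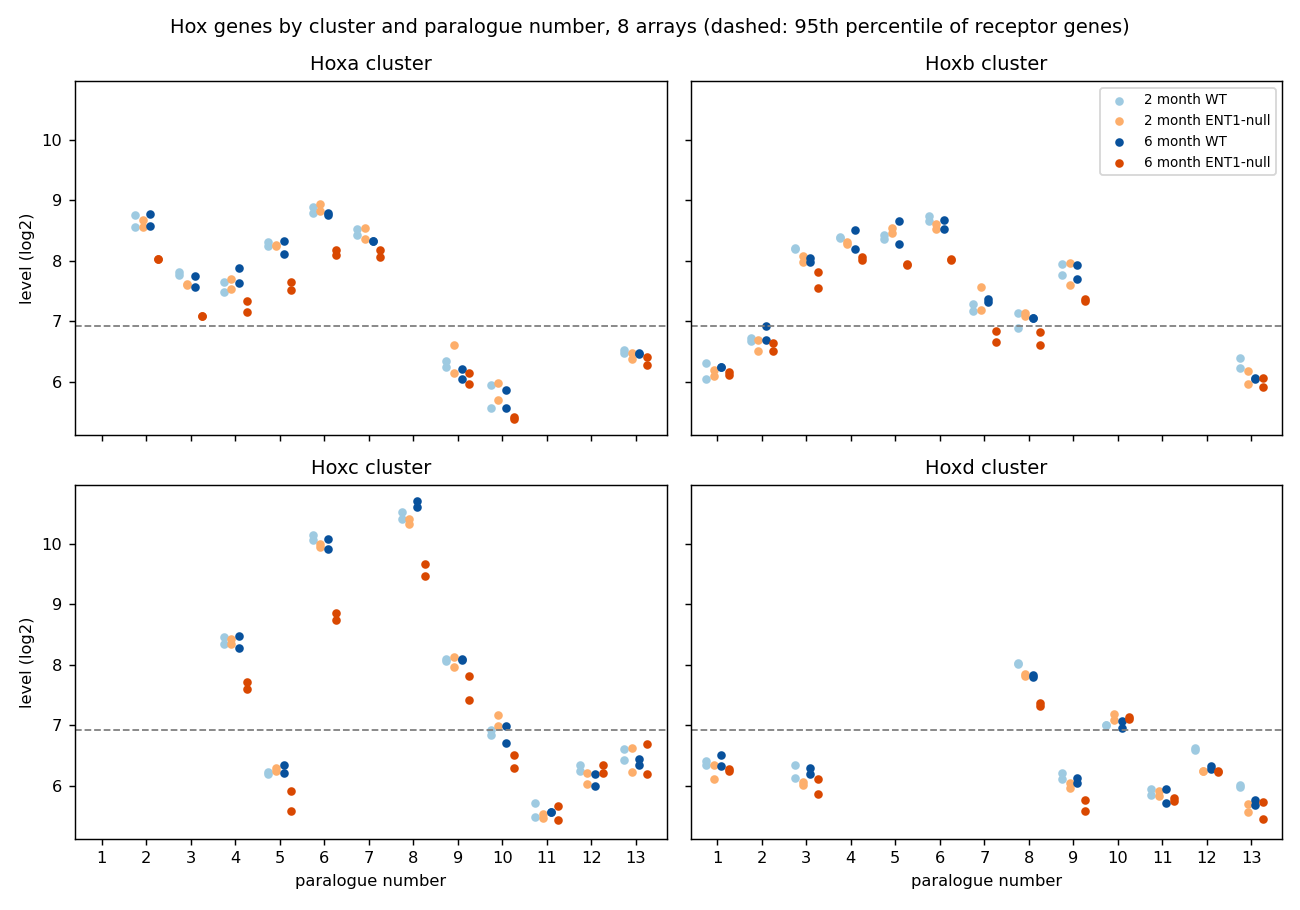
Level (log2) of the 36 Hox genes on each of the 8 arrays (points, coloured by group) against paralogue number, 1 panel per cluster; the dashed line is the 95th percentile of 1409 receptor genes, 6.92. Points lie above the line mostly for numbers 2 to 9, the 11 to 13 genes lie below it, and the 6 month ENT1-null points are the lowest for most genes above it.

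Of the anterior genes, Hoxa2, which patterns the hindbrain and branchial arches, had a mean of 8.49 over the 8 arrays, Hoxb3 7.98 and Hoxa3 7.53. Hoxb2 (6.67), Hoxd1 (6.32), Hoxb1 (6.18) and Hoxd3 (6.13) were not above the receptor level in any group. Among the members read, Hoxa was thus above it from number 2, Hoxb from number 3 and Hoxd from number 8. A probe set shared by Hoxd4 and Hoxd3 had a mean of 7.0, and one shared by Hoxb3 and Hoxb2 had 7.55, both above the receptor level. The start of Hoxd at number 8 therefore holds for single-gene probe sets only.

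In the middle of the clusters, the genes that mark the neck and thorax, Hoxa4 had a mean of 7.54, Hoxa5 8.08, Hoxa6 8.65 and Hoxa7 8.34. In Hoxb, Hoxb4 had 8.27, Hoxb5 8.32, Hoxb6 8.47 and Hoxb7 7.17. Hoxc4 had 8.20 and Hoxc6 9.71, while Hoxc5, which lies between them, had 6.13 and was above the receptor level in no group. Hoxb7 was above in 3 of 4 groups.

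Of numbers 8 to 10, Hoxc8 had the brightest probe set of all members with a mean of 10.26, at the 96.9th percentile of all genes, and Hoxc6 lay at the 93.8th. Hoxc9 had 7.96, Hoxd8 7.75, Hoxb9 7.70, Hoxd10 7.07, Hoxb8 6.97 and Hoxc10 6.80. Hoxa9 (6.21), Hoxd9 (5.98) and Hoxa10 (5.68) were above the receptor level in no group. Hoxa9 and Hoxa10 are known in blood stem and progenitor cells as well. The Hox9 and Hox10 proteins set thoracic and lumbar character in mice.

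The posterior genes, known for sacral, tail, limb and urogenital patterning, were Hoxa13 and Hoxc13 (each 6.44), Hoxd12 (6.35), Hoxc12 (6.20), Hoxb13 (6.11), Hoxd11 (5.84), Hoxd13 (5.74) and Hoxc11 (5.55). Their group means ran no higher than 6.61, that of Hoxd12 in 2 month WT.

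Genes with a mean of at least 6.21, the 30th percentile of all genes, were tested: 26 of 36 Hox genes and 15526 genes in all. The 10 that were not are Hoxa10, Hoxb1, Hoxb13, Hoxc5, Hoxc11, Hoxc12, Hoxd3, Hoxd9, Hoxd11 and Hoxd13, and near background a true difference is compressed on the log2 scale. Differences are log2 values from limma with their SE, and a call is a Benjamini-Hochberg adjusted p below 0.05 over the 15526 genes. The comparisons share arrays, so their counts are not independent of one another.

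The first comparison asks what loss of ENT1 does in young mice. At 2 months no Hox gene was called in the limma fit: 0 of 26 higher and 0 lower, with 2 at an unadjusted p below 0.05, against 0.296% higher and 0.386% lower of all genes. On a scale centred on cartilage markers, described with the 6 month results, 0 of 26 were called too, against 8.33% higher and 0.419% lower of all genes. The 26 differences ran from -0.37 to 0.20 with a median of -0.06, and -0.04 over all genes. In 8 of 26 genes both ENT1-null arrays lay below both WT arrays (30.8%, against 33.2% of all genes).

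Hoxd12 had levels of 6.63 and 6.59 in 2 month WT, against 6.24 in both arrays of 2 month ENT1-null. The difference was -0.37 ± 0.07 (SE, n = 2 and 2, limma adjusted p = 0.0636), between levels that are all under the receptor level. The next by size of the statistic were Hoxd8 (-0.19), Hoxa3 (-0.18), Hoxb3 (-0.17) and Hoxc10 (0.20), none called. Hoxc6 differed by -0.13 with a 95% interval of -0.34 to 0.09, and Hoxc8 by -0.10 with an interval of -0.33 to 0.14, so falls of the size seen at 6 months lie outside both intervals.

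At 6 months the Hox genes fell in ENT1-null annulus relative to the array as a whole, while relative to the cartilage markers most did not. In the limma fit 17 of 26 (65.4%) were lower and 0 higher, against 17.6% lower and 21.2% higher of all genes. When each array was centred on the mean of its 20 cartilage markers, a scaling chosen after seeing the data that moves the median of all genes from -0.03 to 0.61, 13 of 26 were called, 11 higher and 2 lower, against 80.7% higher and 2.11% lower of all genes. The median Hox difference was -0.47 as deposited and 0.16 on the cartilage scale, which in each case is below that of all genes. Both 6 month ENT1-null arrays lay below both 6 month WT arrays in 23 of 26 genes (36.8% of all genes did so). They lay above them in 1, Hoxd10 (5524 of all 15526 genes tested did so). In bulk tissue, fewer cells of a type and less RNA per cell cannot be told apart.

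**Figure D2:**
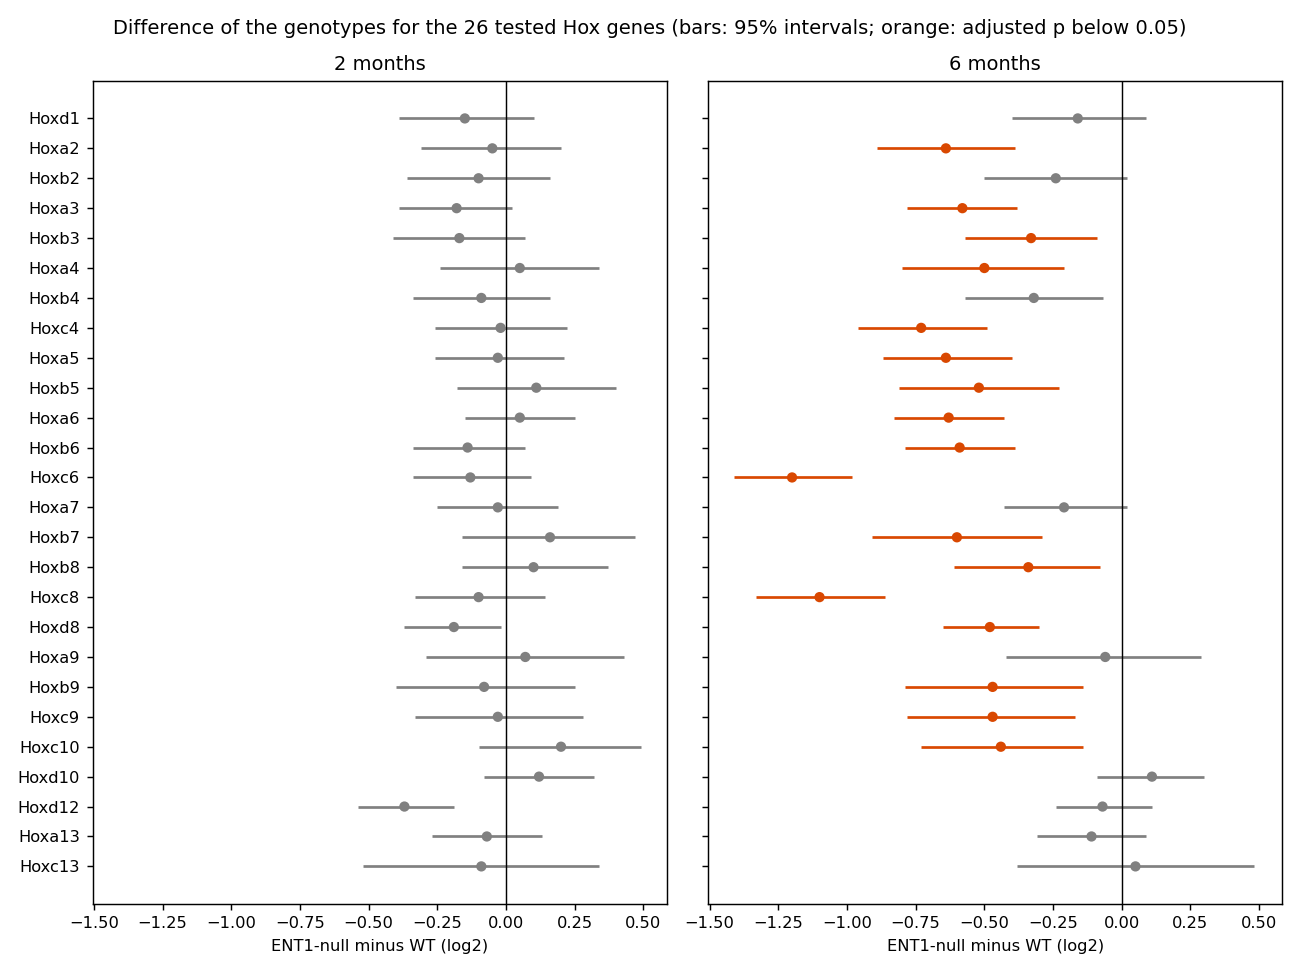
ENT1-null minus WT (log2, points) with 95% intervals from the limma fit (bars) for the 26 tested Hox genes in order of paralogue number, at 2 months and at 6 months; orange marks an adjusted p below 0.05. No gene is orange at 2 months and 17 are at 6 months, all left of 0, with Hoxc6 and Hoxc8 farthest left.

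By paralogue number, the genes that fell were 3 of 5 tested of groups 1 to 3, 8 of 10 of groups 4 to 7, 6 of 8 of groups 8 to 10 and 0 of 3 of groups 11 to 13. By cluster they were 5 of 8 of Hoxa, 6 of 8 of Hoxb, 5 of 6 of Hoxc and 1 of 4 of Hoxd. The tested members of groups 11 to 13 were not above the receptor level in any group. On the cartilage scale the 11 genes called higher were led by Hoxd10 (0.74), which was above the receptor level in all 4 groups, and included Hoxc13 (0.68), Hoxa9 and Hoxd12 (each 0.57) and Hoxa13 (0.52), which were above it in none.

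Hoxc6, a thoracic gene of the trunk, read 9.91 and 10.07 in 6 month WT against 8.85 and 8.74 in 6 month ENT1-null. The 4 arrays from 2 months read 9.94 to 10.14, so the pair of 6 month ENT1-null arrays stood apart below the other 6. The 6 month difference was -1.20 ± 0.09 (n = 2 and 2, limma adjusted p = 0.000383), which leaves 43.7% of the WT level.

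Hoxc8, needed in mice for normal thoracic vertebrae and ribs, read 10.61 and 10.70 in 6 month WT and 9.66 and 9.46 in 6 month ENT1-null, against 10.32 to 10.52 in the 2 month arrays. It fell by 1.10 ± 0.10 on the log2 scale (n = 2 and 2, limma adjusted p = 0.000435). Hoxc6 and Hoxc8 were also the 2 genes that stayed lower on the cartilage scale, at -0.56 ± 0.10 (limma adjusted p = 0.00112) and -0.47 ± 0.12 (0.00579).

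Hoxc4, at the 3′ end of its cluster, read 8.28 and 8.48 in 6 month WT and 7.71 and 7.59 in 6 month ENT1-null, a difference of -0.73 ± 0.10 (limma adjusted p = 0.00140). Hoxa6, a thoracic paralogue of Hoxc6, read 8.75 and 8.78 against 8.17 and 8.10, a difference of -0.63 ± 0.09 (0.00124). Hoxb6, the third of that trio, read 8.53 and 8.67 against 8.01 and 8.02, a difference of -0.59 ± 0.09 (0.00169). All 3 paralogues of number 6 therefore fell relative to the array as a whole, while on the cartilage scale Hoxa6 was at 0 and Hoxb6 at 0.04.

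Hoxa5, which patterns the neck-to-thorax border, read 8.11 and 8.33 in 6 month WT against 7.65 and 7.51 in 6 month ENT1-null (-0.64 ± 0.10, limma adjusted p = 0.00226). Hoxa2 read 8.57 and 8.77 against 8.02 and 8.03 (-0.64 ± 0.11, 0.00315), and Hoxa3 7.57 and 7.74 against 7.08 and 7.08 (-0.58 ± 0.09, 0.00189). A further probe set annotated to Hoxa3 together with 5730446D14Rik, with a mean of 7.56, differed by only -0.16 at 6 months. That value was not tested, so the size of the Hoxa3 fall depends on the probe set. Hoxd8, the only Hoxd gene that fell, read 7.83 and 7.79 against 7.31 and 7.36 (-0.48 ± 0.08, 0.00221). Of the 17 calls, these 9 (Hoxa2, Hoxa3, Hoxa5, Hoxa6, Hoxb6, Hoxc4, Hoxc6, Hoxc8 and Hoxd8) held under each of the 17 alternatives fixed at the start, including leaving out each array.

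The other 8 calls ended without at least 1 array. They were Hoxb7 (-0.60 ± 0.13, limma adjusted p = 0.0107), Hoxb5 (-0.52 ± 0.13, 0.0143) and Hoxa4 (-0.50 ± 0.13, 0.0162), with Hoxc9 and Hoxb9 (each -0.47), Hoxc10 (-0.44), Hoxb8 (-0.34) and Hoxb3 (-0.33). Without 6 month WT replicate 2 all 8 ended, leaving 9 calls and a median of -0.36; Hoxb5 was then at -0.33 and Hoxc10 at -0.30. Without 6 month ENT1-null replicate 2, 11 calls were left, with Hoxc9 at -0.28 and Hoxb8 at -0.24. Hoxb3 kept its call only without 6 month ENT1-null replicate 2 and was at -0.20 without 6 month ENT1-null replicate 1. The means of Hoxb7 (7.34 to 6.74) and Hoxb8 (7.06 to 6.71) crossed the receptor level from WT to ENT1-null at 6 months, and that of Hoxc10 was under it in both (6.85 and 6.41).

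Some members near the called ones missed the threshold. Hoxb4 read 8.20 and 8.51 in 6 month WT and 8.01 and 8.06 in 6 month ENT1-null, a difference of -0.32 ± 0.11 (limma adjusted p = 0.0510). Hoxa7 read 8.32 and 8.33 against 8.18 and 8.06 (-0.21 ± 0.10, 0.126), with a 95% interval of -0.43 to 0.02. The interval of Hoxa7 does not reach the fall of its neighbour Hoxa6, though the difference between the 2 genes was not tested. A further probe set annotated to Hoxa7 together with Mira differed by -0.65 at 6 months and by 0.08 at 2 months, values that were not tested, so the readings for Hoxa7 disagree. The second probe set of Hoxb5 had a mean of 6.77, below the receptor level, and differed by -0.07.

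Hoxd10, a lumbar and limb gene, was the only tested member whose 6 month ENT1-null arrays lay above WT. It read 7.07 and 6.95 in WT against 7.11 and 7.13, a difference of 0.11 ± 0.08 (limma adjusted p = 0.345, 95% interval -0.09 to 0.30). Its paralogue Hoxc10 read 6.71 and 6.98 against 6.30 and 6.51. Hoxa9 read 6.21 and 6.04 in 6 month WT against 5.97 and 6.14 in 6 month ENT1-null, which overlap. Of the members that were not tested, Hoxc5 read 6.21 and 6.34 against 5.91 and 5.58, and Hoxd9 6.13 and 6.04 against 5.76 and 5.58. With no filter on low genes these 2 differed by -0.53 ± 0.12 (limma adjusted p = 0.0136) and -0.42 ± 0.10 (0.0189), at levels under the receptor level. Hoxc12, also not tested and under the receptor level, went the other way, with 5.99 and 6.19 in WT against 6.21 and 6.34. Its difference with no filter was 0.19 ± 0.11 (limma adjusted p = 0.27).

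**Figure D3:**
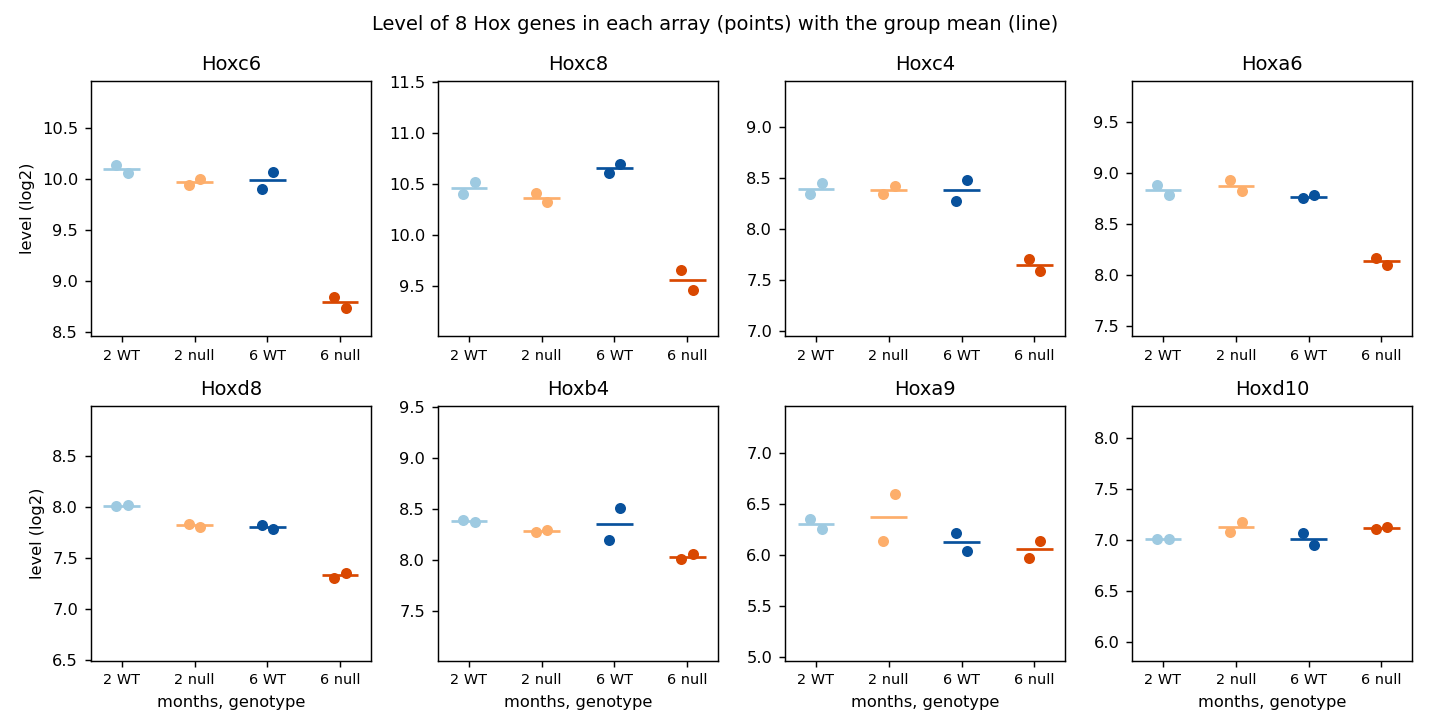
Level (log2) of Hoxc6, Hoxc8, Hoxc4, Hoxa6, Hoxd8, Hoxb4, Hoxa9 and Hoxd10 on each array (points) with the group mean (line); all panels span the same number of log2 units. The 2 arrays of 6 month ENT1-null lie below the other 6 in the panels of Hoxc6, Hoxc8, Hoxc4, Hoxa6, Hoxd8 and Hoxb4, and not in those of Hoxa9 and Hoxd10.

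Whether the genotype difference itself differed between the ages was tested as an interaction. It was lower for 4 of 26 Hox genes and higher for 0, against 1.89% lower and 2.56% higher of all genes: Hoxc6 (-1.07 ± 0.13, limma adjusted p = 0.0356), Hoxc8 (-1.0 ± 0.14, 0.0383), Hoxa6 (-0.68 ± 0.12, 0.0384) and Hoxc4 (-0.71 ± 0.14, 0.0439), each from 8 arrays. On the cartilage scale 5 were called, Hoxc6 and Hoxc8 lower and Hoxa13, Hoxd10 and Hoxd12 higher, against 1.09% lower and 57.3% higher of all genes. Hoxa5, next by its statistic, was at -0.61 (limma adjusted p = 0.0535), and the median of the 26 was -0.42. No call was left with no filter on low genes, which tests more genes, or without any 1 of 7 arrays, which tests fewer arrays. Few genes of any kind were called in these fits. With no filter 7 were higher and 4 lower of all 22180 genes, so the loss was not particular to Hox genes. The sizes stayed close: without each of those arrays Hoxc6 was at -1.12 to -0.99 and Hoxc8 at -1.10 to -0.90. With no filter the limma adjusted p of Hoxc6 and Hoxc8 were 0.0540 and 0.0544. Without the remaining array, 6 month WT replicate 1, 3 were called, with Hoxc6 at -1.15 and Hoxc8 at -1.05 among them.

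Across both ages, with age as a term, 4 of 26 were lower and 0 higher (11.7% and 12.8% of all genes): Hoxd8 (-0.34 ± 0.07, limma adjusted p = 0.0181), Hoxa3 (-0.38 ± 0.09, 0.0249), Hoxb6 (-0.36 ± 0.10, 0.0369) and Hoxc6 (-0.66 ± 0.20, 0.0457), with 4 arrays of each genotype. Hoxb3 followed at -0.25. That share is close to the background. No call was left without any 1 of the 4 arrays from 6 months, 2 were called with the replicate number as a block, and on the cartilage scale 2 were called, both higher (Hoxa9 and Hoxd10), against 48.8% higher and 0.915% lower of all genes.

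With age alone no Hox gene was called. From 2 to 6 months in WT, 0 of 26 were called in limma (0% of all genes in either direction, while 2067 of all genes and 2 Hox genes had an unadjusted p below 0.05). The median was -0.04. The largest statistics were those of Hoxd12 (-0.31), Hoxd8 (-0.20), Hoxc8 (0.20), Hoxb3 (-0.18) and Hoxa7 (-0.15). On the cartilage scale 5 of 26 were called, all higher, among them Hoxc8, against 25.6% higher and 0.148% lower of all genes.

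In ENT1-null mice, 15 of 26 fell from 2 to 6 months and 0 rose (10.2% and 11.9% of all genes), with a median of -0.43. On the cartilage scale 17 were higher (65.4%) and 1 lower, against 91.4% higher and 0.354% lower of all genes. The falls were led by Hoxc6 (-1.17 ± 0.09, limma adjusted p = 0.00172), Hoxa6 (-0.74 ± 0.09, 0.00293), Hoxc8 (-0.80 ± 0.10, 0.00321) and Hoxc4 (-0.72 ± 0.10, 0.00422). The 2 arrays of 6 month ENT1-null enter this comparison, the 6 month genotype comparison and the interaction alike.

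Genes of other cell types moved with the Hox fall. At 6 months 18 of 18 neutrophil markers rose, while of all genes 21.2% rose and 17.6% fell. Their mean level was 8.26 to 9.74 in the WT arrays and 11.47 to 11.53 in the ENT1-null arrays. All 7 erythroid markers rose, as did 8 of 9 blood progenitor and 6 of 6 tested B lymphoid markers. Skeletal muscle markers, at 10.19 to 10.33 in 6 month WT, were at 7.42 to 8.48 in ENT1-null, where 13 of 15 fell. At 2 months the muscle markers were at 7.97 and 9.22 in WT and at 8.77 and 10.34 in ENT1-null, so 6 month WT was also above 2 month WT. Cartilage markers fell in 14 of 20, with a median of -0.72 and mean levels of 10.81 in both WT arrays and 10.16 to 10.20 in ENT1-null. Of 15 annulus and tendon markers 7 fell and 3 rose, with a median of -0.36. On the cartilage scale 5 of these 15 were lower and 7 higher. Sox9, the master regulator of cartilage, fell from 11.92 and 12.08 to 10.86 and 10.91 (-1.11 ± 0.09, limma adjusted p = 0.000383). The part of these cell types in the Hox fall was not tested. At 2 months neutrophil markers stood at 8.43 to 9.64 in WT and 10.43 to 10.78 in ENT1-null. Cartilage markers were at 11.13 and 11.18 in WT against 10.89 and 11.06. The mean over the 36 Hox genes was 7.32 and 7.34 in WT against 7.24 and 7.30. How these levels relate to one another was not tested.

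**Figure D4:**
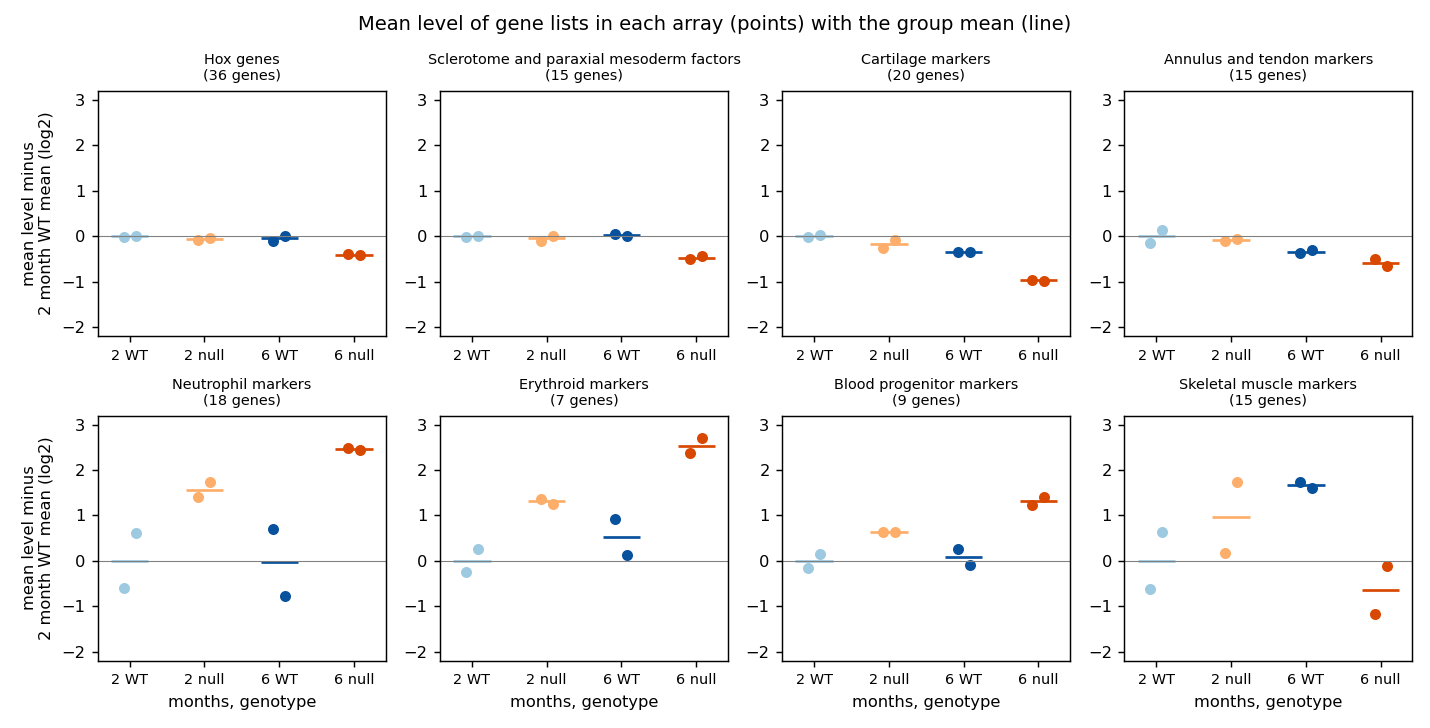
Mean level of the 36 Hox genes and of 7 gene lists on each array (points) minus the 2 month WT mean (log2), with the group mean (line). Hox, sclerotome and cartilage means are lowest in 6 month ENT1-null, neutrophil, erythroid and blood progenitor means are highest there, and muscle means differ widely between groups.

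The sclerotome factors, which act beside Hox genes when vertebrae and discs form, fell in 9 of 14 tested and rose in 0 at 6 months. Their median was -0.44, while on the cartilage scale 3 were lower and 4 higher. Of all genes 17.6% fell and 21.2% rose, with 2.11% lower and 80.7% higher on the cartilage scale. These shares apply to the lists below as well. Pax1, a marker of the early disc, read 9.35 and 9.46 in WT against 8.39 and 8.33 in ENT1-null (-1.04 ± 0.11, limma adjusted p = 0.000574). Pax9, its paralogue, fell by 0.96 ± 0.10 and Meox2, a somite homeobox gene, by 1.31 ± 0.18. The 3 that stayed lower on the cartilage scale were these: Pax1 at -0.41, Pax9 at -0.33 and Meox2 at -0.68. Nkx3-2, a cartilage-promoting factor of the sclerotome, fell by 0.89 ± 0.12. Among 17 tested head, limb and girdle factors 4 fell and 0 rose (1 lower and 13 higher on the cartilage scale), led by Tbx15 (-1.46 ± 0.17), a limb and girdle factor, and Dlx5 (-0.74 ± 0.12). Tbx15 read 8.86 and 8.50 in 6 month WT, 7.09 and 7.35 in 6 month ENT1-null, and 7.83 to 8.20 in the 2 month arrays.

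Partners and regulators moved both ways, as genes in general did. Of all genes 21.2% rose and 17.6% fell at 6 months, and 80.7% were higher on the cartilage scale. Of 8 TALE-class cofactors 1 rose, Pbx2 (0.44 ± 0.09), and 2 fell, among them Pknox2 (-0.82 ± 0.12); on the cartilage scale 6 were higher and 0 lower. Of 21 Polycomb genes 7 rose and 5 fell, while on the cartilage scale 17 were higher and 0 lower. Ezh2, the H3K27 methyltransferase, rose from 9.46 and 8.95 to 10.39 and 10.63 (1.30 ± 0.17, limma adjusted p = 0.00113), Jarid2 by 0.77 ± 0.09 and Suz12 by 0.72 ± 0.09, while Rnf2, the ubiquitin ligase of the other Polycomb complex, fell by 0.55 ± 0.09 and was 0.08 higher on the cartilage scale. Ezh2 is also a gene of dividing cells, and the blood lists above moved with it, whose part was not tested. Of 10 Trithorax genes 3 rose, with Dpy30 at 0.45 ± 0.09, and 1 fell (9 higher and 0 lower on the cartilage scale).

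Of 20 tested axial patterning and retinoic acid genes 9 fell and 2 rose at 6 months (1 lower and 12 higher on the cartilage scale). The shares of all genes were 17.6% and 21.2% (2.11% and 80.7% on the cartilage scale). Zbtb16, a zinc-finger repressor known to act on Hox genes in the limb, read 10.11 and 10.45 in 6 month WT and 8.58 and 8.35 in ENT1-null (-1.81 ± 0.19, limma adjusted p = 0.000537). It was also lower at 2 months (-1.84 ± 0.19, 0.0285), a call that ended without any 1 of 5 arrays (-1.66 without 2 month WT replicate 1, -2.04 and -1.64 without either 2 month ENT1-null array, and -1.84 without either 6 month ENT1-null array). The retinoic acid enzymes went apart: Aldh1a3 fell by 0.81 ± 0.09 and Aldh1a1 rose by 1.42 ± 0.22. Rxra, a nuclear receptor partner, fell by 0.71 ± 0.11.

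The nearest genes outside the clusters did not share one direction. Skap2, an adaptor of blood cells beside the Hoxa cluster, read 8.72 and 8.58 in 6 month WT and 9.69 and 9.47 in ENT1-null (0.93 ± 0.10, limma adjusted p = 0.000576), while 5 of 8 tested Hoxa genes fell and 0 rose. Calcoco1, past Hoxc13, differed by 0.03 ± 0.09 and Evx2, past Hoxd13, by -0.07 ± 0.11, neither called. Of the 5 neighbours tested 2 rose and 1 fell, and on the cartilage scale all 5 were higher, as were 80.7% of all genes.

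The non-coding RNAs of the clusters matched 7 genes of 19 listed, of which 5 were tested and 1 fell (0 lower and 3 higher on the cartilage scale). Mir615, inside the Hoxc cluster, read 6.74 and 6.48 in 6 month WT and 5.96 and 6.16 in ENT1-null (-0.55 ± 0.12, limma adjusted p = 0.00989), all under the receptor level. Its call ended without 6 month WT replicate 1 (-0.42) and without 6 month ENT1-null replicate 1 (-0.45), and on the cartilage scale it was 0.08 higher. Mir196a-1, in the Hoxb cluster, read 7.63 and 8.10 against 6.95 and 7.46 (-0.66 ± 0.26, limma adjusted p = 0.0840), so its arrays are lower without a call. Mir10b read 3.24 to 3.62 and Mir196a-2 4.09 to 5.06 over the 8 arrays, under the receptor level. A probe set of this kind is named for the gene, and the mature microRNA was not read apart from its precursor. Hotair, a Hoxc antisense RNA of posterior tissues, read 6.14 to 6.75, also under the receptor level.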

How the data were processed

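The 8 arrays measured total RNA of pooled annulus tissue. Per the submitters' processing notes the deposited log2 values, 1 for each probe set on each array, were made with RMA. Its version and a genome build were not given in the sources used here. Of 41345 probe sets 23521 had 1 symbol in GEO's platform annotation, 1814 several and 16010 none, which gave 22180 genes. Genotype and age came from the labels, and all 8 arrays were used.

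Fits used limma 3.58.1 in R 4.3.3: 4 group means (4 residual degrees of freedom), or genotype and age as terms (5), eBayes, and Benjamini-Hochberg adjustment over the 15526 genes with a mean at or above the 30th percentile. The fit was tested on simulated data. Every Hox gene is named; full statistics go to at most 12 called members per comparison by moderated statistic, with the top 5 as values where fewer than 5 passed, and to at most 4 called members of another list. Counts of calls for a list have no set test. The members and lists were chosen with earlier results of these data known. Lists were matched by symbol to 234 of 267 entries in 19 lists, and the rest are not analysed here. Promoter and microRNA sequences are RefSeq's (GRCm38.p6). Alternatives changed the filter, scaling, probe sets, block, variance prior, arrays and threshold.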

Additional observations from a re-analysis of the deposited data

Results flagged for a closer look

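The genotype difference of 4 Hox genes and 7 other named genes differed between 6 and 2 months by the interaction test in limma (adjusted p below 0.05, 8 arrays). The Hox genes were Hoxc6 (-1.07), Hoxc8 (-1.0), Hoxc4 (-0.71) and Hoxa6 (-0.68), all further down at 6 months. Of the patterning genes, Tbx15 (-1.56), Meox2 (-1.48), Pax1 (-0.76) and Pax9 (-0.65) were also further down, and the Polycomb genes Suz12 (0.65) and Jarid2 (0.57) and the Hoxa neighbour Skap2 (0.67) were further up. Of these 11 calls 0 held with no filter on low genes, where only 7 genes were higher and 4 lower of all 22180.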

How the results depend on the processing

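The alternatives fixed at the start were read gene by gene for called Hox genes and for the top called members of the lists other than cell type markers. None of these changed direction (0 of 1253 gene values), and 995 of the values also kept their side of the threshold. Many of these values could not have changed direction. Changes of the filter, probe sets, block, variance prior or threshold leave a gene's estimate as it was. So does leaving out an array of a group that is not compared. An adjusted p threshold of 0.1 also cannot end a call. Genes without a call and the cell type markers were not read in this way. Outside the leave-one-out fits, at 6 months 13 to 18 Hox genes were called lower. Leaving out each array gave 9 to 16 calls at 6 months, 10 to 13 with age in ENT1-null, 0 to 6 across ages, 0 to 3 in the interaction, and 0 at 2 months and with age in WT. The 6 month median was -0.52 to -0.36 in those fits. With no filter the interaction gave 0 calls, where more genes are tested and only 7 were higher and 4 lower of all 22180. At adjusted p below 0.1 there were 12 calls in the interaction, 10 across ages and 1 (Hoxd12) at 2 months. Of all 15526 genes, 1476 were then higher and 907 lower in the interaction. Across ages 2730 were higher and 2908 lower, and at 2 months 497 and 326. The Hox shares across ages and at 2 months were thus close to those of all genes. With the receptors' 99th percentile 4 genes were above in all groups, against 17.

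The replicate block gave 16 calls at 6 months and 2 across ages. The labels tie the numbers to no shared animal or day. Same-numbered arrays deviated from their group means with r of -0.39 to 0.41 over genes. With 2 arrays per group such r cannot tell whether pools shared an animal or day, and the main fit did not pair the arrays.

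Centring each array on its cartilage markers, chosen after seeing the data, turned results because those markers themselves fell. The calls were 13 at 6 months (median 0.16), 5 in the interaction (0.03), 2 across ages (0.18), 18 with age in ENT1-null (0.36) and 5 with age in WT. At 6 months it gave Hoxa3 0.05, Hoxa4 0.13, Hoxb3 0.30, Hoxb5 0.11, Hoxb6 0.04, Hoxb7 0.03, Hoxb8 0.29, Hoxb9 0.16, Hoxc9 0.16, Hoxc10 0.19 and Hoxd8 0.15, with Barx1 0.28, En1 0.32, Gm11529 0.26, Kmt2a 0.31, Meis2 0.18, Mir615 0.08 and Rnf2 0.08. Across ages it gave Hoxa3 0.03, Hoxb6 0.05 and Hoxd8 0.07. With age in ENT1-null it gave Hoxa2 0.21, Hoxa3 0.26, Hoxa5 0.13, Hoxa6 0.05, Hoxa7 0.46, Hoxb3 0.44, Hoxb5 0.23, Hoxb6 0.24, Hoxb7 0.15, Hoxb8 0.39, Hoxc4 0.07, Hoxc10 0.12 and Hoxd8 0.30. The number of arrays limits what could be called, and 16 of 36 members were not above the receptor level in any group.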
